A study of Homo sapiens with 6 samples.

Results

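The genes described here are 43 cytosolic and mitochondrial chaperones and their regulators, chosen by name from the HSP70 and HSP110, HSP90, J-domain, small heat shock, co-chaperone and chaperonin families together with the heat shock factors HSF1 and HSF2. All 43 were found among the 60617 gene identifiers in each count file. They were measured by RNA-seq in 6 tumors grown as xenografts from the established cell line WM983-B, which came from a human melanoma. The study asked what changes in such tumors when the animals receive anle138b systemically. Anle138b is a diphenyl-pyrazole that binds oligomeric α-synuclein and disturbs its structure. The anle138b group held 3 tumors and the untreated group 3 tumors. The labels give no dose, duration, vehicle, host strain, host age or graft site, and all 6 tumors came from the same cell line. The sample names fall into 2 naming sets that each hold both treatments. One has 4 libraries, anle138b replicates 1 and 2 with untreated replicates 1 and 2, and the other has 2, replicate 3 of each group. What the names stand for is not given, and replicate numbers pair no tumors.

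Chaperones bind unfolded or partly folded proteins and keep them from clumping. HSP70 proteins work in cycles of ATP hydrolysis started by J-domain proteins and ended by nucleotide exchange factors such as HSP110 and BAG proteins, HSP90 finishes the folding of kinases and receptors, small heat shock proteins hold unfolded clients without ATP, and chaperonins enclose a client in a barrel. Together HSP70, a J-domain protein and HSP110 can take α-synuclein fibrils apart in the test tube, and HSF1 is the transcription factor that raises many of these genes when unfolded proteins accumulate.

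Depth was 12400782 to 27599159 assigned reads in anle138b tumors and 14464593 to 22768826 in untreated tumors. The 43 genes took 1.05% to 1.16% of the counts in anle138b tumors and 1.06% to 1.18% in untreated tumors. All 11 melanocytic marker genes were detected in every tumor, with summed levels of 15994 to 19630.2 counts scaled to a common library size (CPM) in anle138b tumors and 14611 to 18945 CPM in untreated tumors, and SOX10, a melanocyte lineage factor, lay at 446 to 520.3 CPM in anle138b tumors and 428 to 529 CPM in untreated tumors. CPM here are scaled by the TMM method, which corrects library sizes for composition. PMEL made up most of the melanocytic sum, with 9132 to 13108.7 CPM in anle138b tumors and 8281 to 13443.5 CPM in untreated tumors. By the edgeR test described below 0 of the 11 were called, and 4 had an unadjusted p under 0.05, against 8.49% of all genes. These were TYRP1, DCT, TYR and S100B, with log2 fold changes of 1.42, 0.42, 0.27 and -0.46. In bulk tissue, fewer cells of a type and less RNA per cell cannot be told apart.

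CRYAB, which encodes αB-crystallin, a holdase of the small heat shock family, fell 2.25-fold in anle138b tumors and was the 1 chaperone gene called, a call that was lost when the naming set was left out of the fit (adjusted p = 0.316). Of the 41 chaperone genes with enough counts to test, 0 were raised and 1 was lowered, against a background of 1.05% of the 20423 genes tested that were called in either direction, 0.656% raised and 0.397% lowered. A gene was called when its Benjamini-Hochberg adjusted p, from edgeR's quasi-likelihood test over all genes with the naming set in the design, was under 0.05. HSPB2 and HSPB6 were too low to test. At an unadjusted p under 0.05 there were 2 chaperone genes, CRYAB and HSPA2, or 4.88% against 8.49% of all genes. On the CPM scale the 2 groups of tumors did not overlap for 2 of the 41, CRYAB and HSF2, against 8.5% of all genes.

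The other 40 tested genes had adjusted p between 0.567 and 0.999, which does not show that they were equal between groups. Their intervals say how large a difference remained possible. For 38 of the 41 genes the 95% interval of the fold change lay inside 1.5-fold in either direction, as it did for 52.6% of all genes tested, and the exceptions were CRYAB, HSPB7 and HSPB1. Leaving out CRYAB and HSPB7, the 39 remaining log2 fold changes lay between -0.26 and 0.21. In all, 19 were above 0 and 22 below, with a median of -0.03 against -0.01 for all genes. The median standard error was 0.12 on the log2 scale for the chaperone genes and 0.17 for all genes, and 40 of the 41 had at least 100 counts in every tumor.

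**Figure D1:**
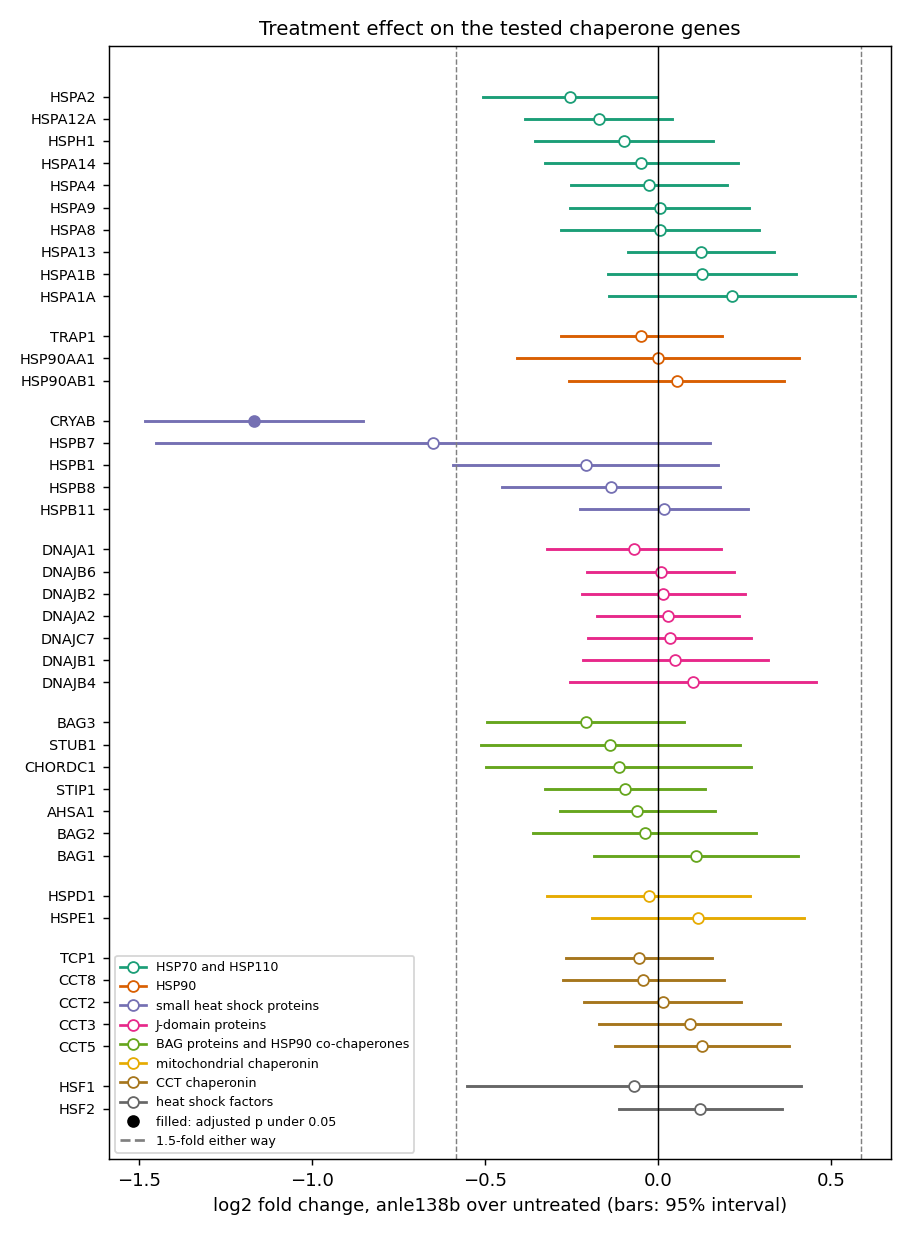
Log2 fold change of anle138b over untreated tumors for the 41 tested chaperone genes, grouped by family, with 95% intervals from the edgeR fit. The filled point is CRYAB at -1.17, the called gene, and dashed lines mark 1.5-fold in either direction.

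Levels per gene length, in TPM, put HSP90AB1 first with 2356 ± 55.5 TPM in anle138b tumors and 2194 ± 268 TPM in untreated tumors (SD, n = 3 each). HSPA8 followed with 1119 ± 81.6 TPM in anle138b tumors and 1090.0 ± 249 TPM in untreated tumors, and HSP90AA1 with 896 ± 106 TPM in anle138b tumors and 901 ± 349 TPM in untreated tumors. HSPA8 was above HSP90AA1 in each of the 6 tumors, with ranges that did not touch in anle138b tumors and overlapped in untreated tumors. HSPD1, the mitochondrial chaperonin, came next with 566 ± 68.6 TPM in anle138b tumors and 554 ± 42.2 TPM in untreated tumors, above all later genes. HSPA4, HSPA9, CCT2, CCT5, HSPB1, CCT3 and AHSA1 then followed at means of 200.2 to 262 TPM in anle138b tumors, and neighbours among them overlapped when all 6 tumors were taken. The low end was held by BAG1, BAG2 and the 3 muscle-type small heat shock genes HSPB7, HSPB6 and HSPB2, whose means over all 6 tumors were 12.3, 7.64, 0.74, 0.395 and 0.108 TPM.

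**Figure D2:**
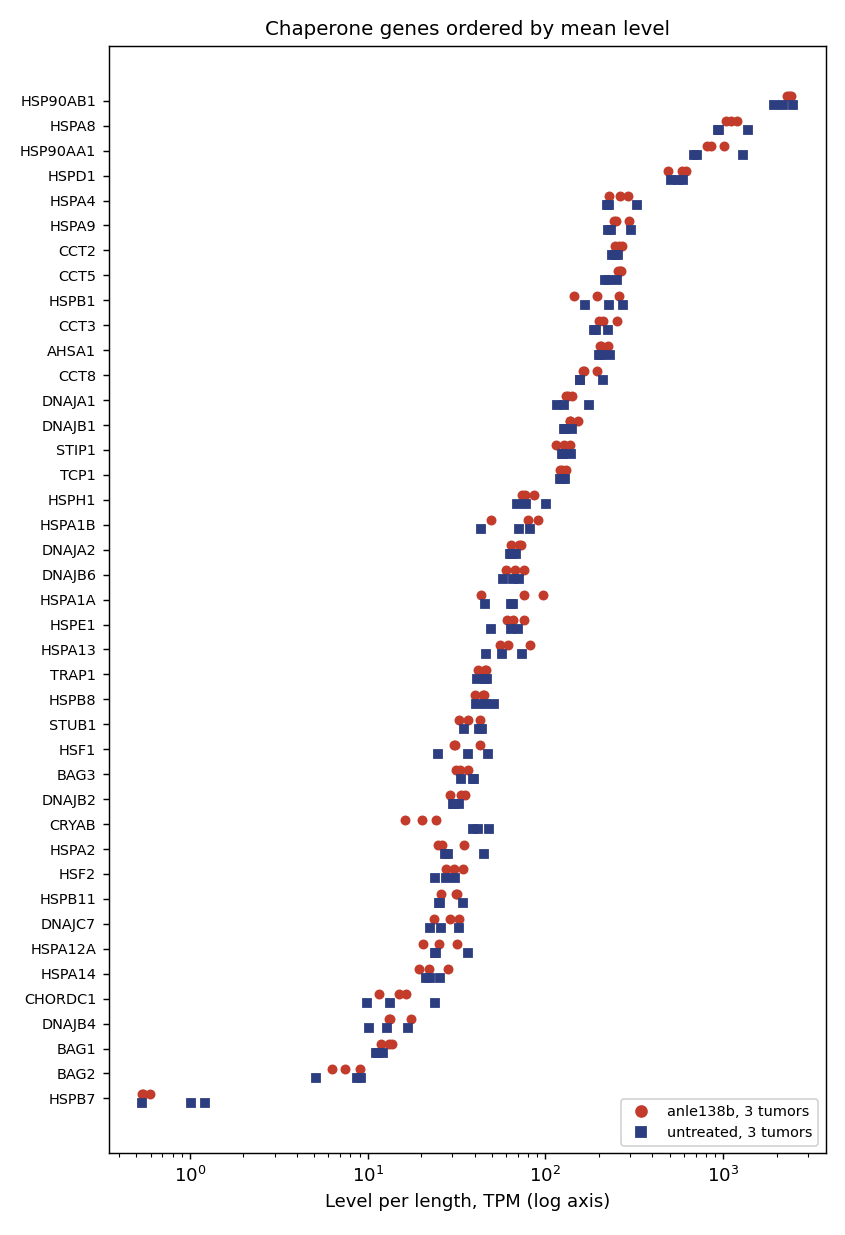
TPM on a log axis of the 41 chaperone genes with a value above 0 in every tumor, ordered by mean level, with one point per tumor. CRYAB is the gene whose 3 anle138b points all lie left of its 3 untreated points by more than the width of either group.

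The small heat shock proteins are ATP-independent holders of unfolded protein. CRYAB, known from the lens and from striated muscle, lies on chromosome 11 at chr11:111908565-111923722 on the minus strand (GRCh38, GENCODE 29). It had 22.2, 22.4 and 14.2 CPM in anle138b tumors, against 39.7, 55.04 and 35.6 CPM in untreated tumors. Every anle138b tumor lay below every untreated tumor, an order that 4.47% of all genes tested showed. The log2 fold change was -1.17 ± 0.14 (SE, adjusted p = 0.00418), with a 95% interval of -1.48 to -0.85. Per length the level was 20.2 ± 3.89 TPM in anle138b tumors and 43.1 ± 4.69 TPM in untreated tumors (SD, n = 3 each). Within the 2-library set the log2 CPM difference was -1.32 and within the 4-library set -1.07. Among all genes tested CRYAB ranked 56 by p, and 9 among those lowered.

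The CRYAB call depended on the naming set term: without it the log2 fold change was -1.16 with an adjusted p of 0.316, and 9 genes in all were called in place of 215. With each library left out in turn CRYAB stayed between -1.28 and -1.05, with adjusted p of 0.000247 to 0.0267.

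CRYAB shares 20.6% of its exon bases with HSPB2 and the HSPB2-C11orf52 transcript on the opposite strand, and the library kit does not mark strand. HSPB2, a partner of myotonic dystrophy kinase, was read at 0, 0 and 0 counts in anle138b tumors and 2, 1 and 2 counts in untreated tumors, and HSPB2-C11orf52 at 0 in all 6. Because CRYAB is also a gene of striated muscle, 26 skeletal muscle genes were summed. They gave 367 to 586 CPM in anle138b tumors and 363 to 443 CPM in untreated tumors, 14 of 26 had more than 3 counts in every tumor, MYL1 and MYOD1 were at 0 throughout, and 0 were called. The highest muscle sum was in anle138b replicate 2, with 131 counts of the muscle creatine kinase CKM against 1 to 11 in the tumors other than it. TTN made up much of each sum, with 213, 332 and 282 CPM in anle138b tumors and 260, 198 and 257 CPM in untreated tumors. Of 9 endothelial genes, 8 with more than 3 counts in every tumor, 0 were called, with sums of 32.1 to 32.9 CPM in anle138b tumors and 36.4 to 43.5 CPM in untreated tumors. TIE1 made up much of that sum, with 22.3, 21.2 and 12.5 CPM in anle138b tumors and 31.1, 29.2 and 19.05 CPM in untreated tumors. Of the 6 endothelial genes tested 3 had positive and 3 negative log2 fold changes. By edgeR 3 of the 6 had an unadjusted p under 0.05, against 8.49% of all genes. These were KDR, VWF and TIE1, with log2 fold changes of 0.66, -0.60 and -0.52 (adjusted p = 0.368, 0.527 and 0.0692). Of 9 keratinocyte genes, 3 with more than 3 counts in every tumor, 0 were called, with sums of 42.6 to 44.3 CPM in anle138b tumors and 44.5 to 52.3 CPM in untreated tumors. KRT10 and FLG made up most of that sum, and each overlapped between groups. Of 12 fibroblast and pericyte genes LUM was called, as raised, and the sums of 487 to 879.6 CPM in anle138b tumors and 451 to 604 CPM in untreated tumors overlapped. Of 6 adipocyte genes 0 were called, with sums of 2.29 to 5.38 CPM in anle138b tumors and 4.15 to 7.72 CPM in untreated tumors. Among the 3 adipocyte genes tested CIDEC had 3, 6 and 13 counts in anle138b tumors and 13, 10 and 29 counts in untreated tumors. On the CPM scale every anle138b tumor lay below every untreated tumor for CIDEC, an order that 4.47% of all genes tested showed. Its log2 fold change was -1.26 (adjusted p = 0.216), while FABP4 had -0.86 and PLIN1 0.20. Of 11 myeloid and lymphocyte genes 0 were called, with sums of 30.7 to 48.4 CPM in anle138b tumors and 22.9 to 42.3 CPM in untreated tumors. The endothelial and keratinocyte sums and the genes CIDEC, VWF and ERG were lower in all anle138b tumors than in all untreated tumors, as was CRYAB. ERG was too low to test, and for sums no share over all genes was computed. The tumors were xenografts of a human line read on human gene identifiers, and the handling of mouse reads is not given. Reads on these marker genes may thus come from tumor cells or from the host, which was not tested. The part of any of these lists, muscle among them, in the CRYAB result was not tested.

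HSPB1 (HSP27), the most abundant small heat shock transcript per length, had 154, 97.6 and 67.9 CPM in anle138b tumors, against 125, 169 and 77.0 CPM in untreated tumors. The groups overlapped, and the log2 fold change was -0.21 ± 0.17 (SE, adjusted p = 0.884) with an interval of -0.59 to 0.17. HSPB7, a heart and muscle member, had 10, 8 and 19 counts in anle138b tumors, against 26, 20 and 14 counts in untreated tumors. Its log2 fold change of -0.65 ± 0.36 (SE, adjusted p = 0.73) had the widest interval of the 41, from -1.45 to 0.15. Its log2 CPM difference was 0.15 in the 2-library set and -1.02 in the 4-library set, and without replicate 3 of either group its log2 fold change was -1.12 and -1.11. HSPB6, another muscle member, had 4, 0 and 8 counts in anle138b tumors and 3, 4 and 6 counts in untreated tumors. HSPB8, which works with BAG3 in selective autophagy, and HSPB11, an intraflagellar transport protein by function, had log2 fold changes of -0.14 and 0.02.

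**Figure D3:**
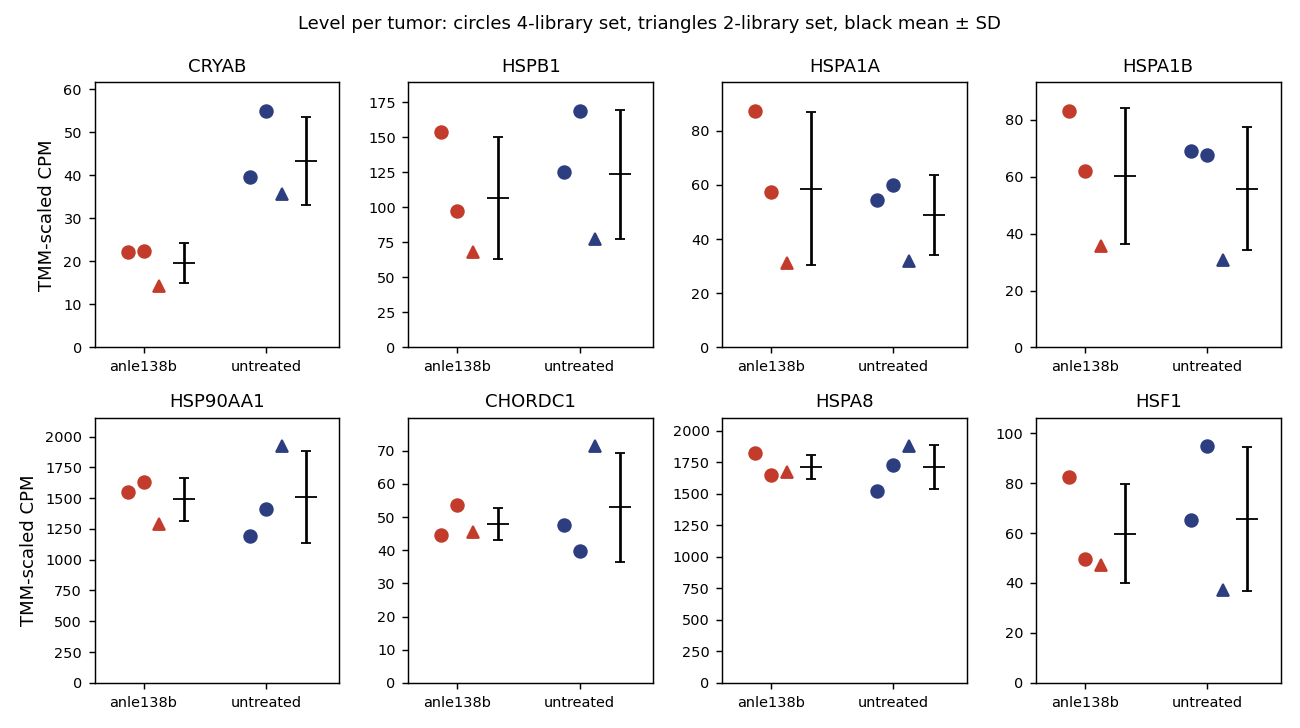
TMM-scaled CPM of 8 chaperone genes in each tumor, with circles for the 4-library set, triangles for the 2-library set and black bars for the mean ± SD of 3 tumors. CRYAB separates the groups, from 14.2 to 22.4 CPM in anle138b tumors against 35.6 to 55.04 CPM in untreated tumors, while in the other panels the groups overlap. In CRYAB, HSPA1A, HSPA1B, HSPB1 and HSF1 replicate 3 is the lowest of each group.

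The HSP70 and HSP110 family counted 10 tested genes, of which 0 were called, with a median log2 fold change of -0.01. HSPA8 (HSC70), the constitutive cytosolic HSP70, had 1823, 1649 and 1673 CPM in anle138b tumors, against 1526, 1731 and 1877 CPM in untreated tumors. The ranges lay over each other, and the log2 fold change was 0.01 ± 0.13 (SE, adjusted p = 0.998) with an interval of -0.28 to 0.29. HSPA9 (mortalin), the mitochondrial HSP70, had a log2 fold change of 0.00 with an interval of -0.26 to 0.26. HSPA4 and HSPH1, both HSP110 exchange factors, had log2 fold changes of -0.03 and -0.10.

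HSPA1A and HSPA1B encode the stress-inducible HSP70, the classical readout of the heat shock response. HSPA1A, at chr6:31815464-31817946 on the plus strand, had 87.4, 57.5 and 31.1 CPM in anle138b tumors, against 54.6, 60.1 and 31.9 CPM in untreated tumors. HSPA1B, at chr6:31827735-31830255 on the plus strand, had 83.2, 62.0 and 35.5 CPM in anle138b tumors, against 69.1, 67.6 and 30.8 CPM in untreated tumors. In each gene both tumors of the 2-library set lay below the 4 others, and the treatment groups overlapped. The log2 fold changes were 0.21 ± 0.16 for HSPA1A (SE, adjusted p = 0.856) and 0.13 ± 0.12 for HSPA1B (SE, adjusted p = 0.914). The HSPA1A difference rested on anle138b replicate 1, since without it the log2 fold change was -0.02. Their coding sequences of 1923 bases differ at 4 positions and share an identical run of 1709 bases, so counts of each alone are uncertain. Their summed counts gave a log2 fold change of 0.17 (adjusted p = 0.876).

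HSPA2, an HSP70 best known from testis, had 54.4, 43.7 and 57.5 CPM in anle138b tumors, against 54.4, 59.04 and 73.2 CPM in untreated tumors. Its log2 fold change of -0.26 ± 0.11 (SE) had an unadjusted p of 0.0459 and an adjusted p of 0.567, and the groups overlapped. HSPA13, a microsomal HSP70-like protein, had 84.6, 79.2 and 98.4 CPM in anle138b tumors, against 80.4, 72.7 and 87.3 CPM in untreated tumors. Its log2 fold change was 0.12 ± 0.09 (SE, adjusted p = 0.864), again with overlapping groups. HSPA12A, a distant family member, and HSPA14, a ribosome-associated one, had log2 fold changes of -0.17 and -0.05.

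All 3 HSP90 genes stayed uncalled, with a median log2 fold change of -0.00. HSP90AB1, the constitutive form, had 2480.3, 2201 and 2006 CPM in anle138b tumors, against 1929, 2429 and 2072 CPM in untreated tumors. The groups overlapped, and the log2 fold change was 0.05 ± 0.14 (SE, adjusted p = 0.978). HSP90AA1, the inducible form, had 1546, 1630.4 and 1289.9 CPM in anle138b tumors, against 1196, 1413 and 1922 CPM in untreated tumors. Its log2 fold change was -0.00 ± 0.18 (SE, adjusted p = 0.999), with an interval of -0.41 to 0.41, and the naming sets had opposite orders. TRAP1, the mitochondrial HSP90, had a log2 fold change of -0.05.

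The 7 J-domain proteins, which deliver clients to HSP70, had 0 calls, 6 positive and 1 negative log2 fold changes and a median of 0.03. DNAJA1 and DNAJB1 were about equally abundant per length, with 136 ± 4.98 and 142 ± 8.65 TPM in anle138b tumors and 139 ± 31.4 and 133 ± 7.44 TPM in untreated tumors (SD, n = 3 each). DNAJA1 had 129.6, 118 and 105 CPM in anle138b tumors, against 116, 119 and 134 CPM in untreated tumors. It overlapped between groups, with a log2 fold change of -0.07 ± 0.11 (SE, adjusted p = 0.96). DNAJB1, the inducible partner of HSP70 in taking fibrils apart, had 201, 154 and 144 CPM in anle138b tumors, against 157, 179 and 146 CPM in untreated tumors, a log2 fold change of 0.05. DNAJB6, known for holding back polyglutamine aggregation, and DNAJB2, a neuronal form with the same activity, had log2 fold changes of 0.01 and 0.02. DNAJA2, DNAJC7 and DNAJB4 had 0.03, 0.03 and 0.10.

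The 7 BAG proteins and co-chaperones had 0 calls, 1 positive and 6 negative log2 fold changes and a median of -0.10. AHSA1, which activates the HSP90 ATPase, had 218, 203 and 172 CPM in anle138b tumors, against 197, 228 and 191 CPM in untreated tumors. Its log2 fold change was -0.06 ± 0.10 (SE, adjusted p = 0.961), and the groups overlapped. BAG3, the partner of HSPB8, had a log2 fold change of -0.21 ± 0.13 (SE, adjusted p = 0.775) with an interval of -0.49 to 0.07. STUB1 (CHIP), the ubiquitin ligase of HSP70 and HSP90 clients, STIP1 (HOP), the bridge between the 2 chaperones, CHORDC1, an HSP90 co-chaperone, and BAG2, an inhibitor of STUB1, had log2 fold changes of -0.14, -0.10, -0.11 and -0.04. BAG1, the exchange factor that gave the family its name, had 0.11.

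Of the mitochondrial chaperonin pair, HSPD1 (HSP60) had 906, 804 and 595 CPM in anle138b tumors, against 723, 889 and 709 CPM in untreated tumors. HSPE1 (HSP10), its lid, had 54.4, 39.6 and 34.7 CPM in anle138b tumors, against 46.3, 47.7 and 27.4 CPM in untreated tumors. Both overlapped between groups, with log2 fold changes of -0.03 ± 0.13 for HSPD1 (SE, adjusted p = 0.988) and 0.11 ± 0.14 for HSPE1 (SE, adjusted p = 0.94). HSPE1 lies inside the span of HSPD1 on the opposite strand and shares 23.9% of its exon bases with other genes, so its reads cannot be fully told apart. The same limit holds for other members with larger shares. These were HSPB2 (59.7%), BAG2 (44.2%), STUB1 (42.4%), HSPB6 (38.2%), HSPA1B (36.5%), CCT5 (30.1%) and TRAP1 (29.3%).

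CCT, the cytosolic chaperonin that folds actin and tubulin, was represented by CCT2, CCT3, CCT5, CCT8 and TCP1, and 0 of the 5 were called. CCT2 had 387, 342 and 333 CPM in anle138b tumors, against 358, 385 and 312 CPM in untreated tumors, a log2 fold change of 0.01 ± 0.10 (SE, adjusted p = 0.993). CCT5 had 542, 467 and 445 CPM in anle138b tumors, against 422, 495 and 414 CPM in untreated tumors, a log2 fold change of 0.13 ± 0.11 (SE, adjusted p = 0.902). On the CPM scale neither separated the groups. In TPM CCT5 had 257 to 265.5 in anle138b tumors and 216 to 252 in untreated tumors, which did not overlap, and no share over all genes was computed on that scale. The 5 subunits spanned -0.06 to 0.13.

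**Figure D4:**
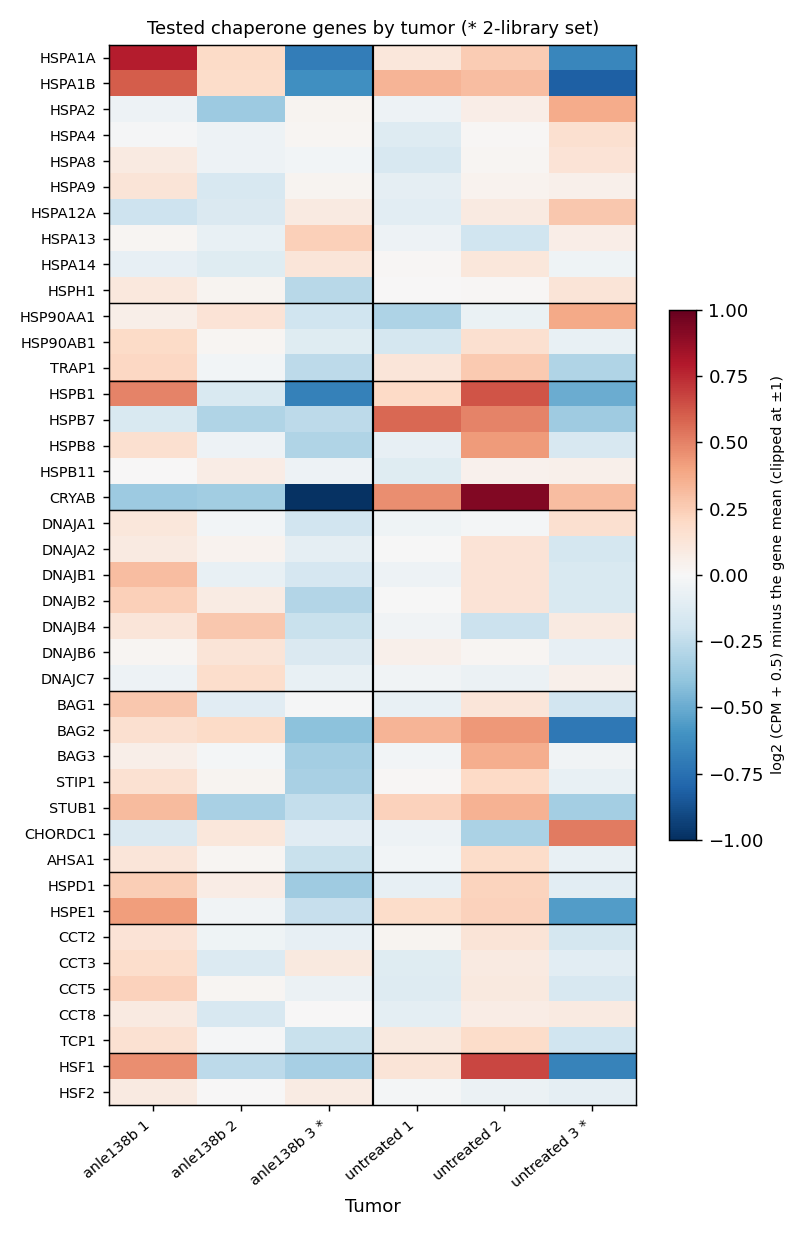
Log2 (CPM + 0.5) minus the gene's mean over 6 tumors for the 41 tested chaperone genes, with anle138b tumors in the left 3 columns, untreated tumors in the right 3 and asterisks on the 2-library set. CRYAB is the row that is blue in all anle138b tumors and red in all untreated ones, and in HSPA1A, HSPA1B, HSPB1 and HSPE1 replicate 3 of both groups is blue.

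HSF1, the main regulator of the heat shock response, had 82.5, 49.5 and 47.3 CPM in anle138b tumors, against 65.2, 94.8 and 37.2 CPM in untreated tumors. The groups overlapped, and the log2 fold change was -0.07 ± 0.21 (SE, adjusted p = 0.982) with an interval of -0.55 to 0.41. HSF1 is activated by trimer formation of existing protein, which a transcript level does not measure. HSF2, a related factor, had 26.9, 25.4 and 26.8 CPM in anle138b tumors, against 24.9, 24.2 and 23.7 CPM in untreated tumors. On the CPM scale it was the 1 tested chaperone gene with every anle138b tumor above every untreated tumor, an order shown by 4.03% of all genes. In TPM its groups overlapped. Its log2 fold change was 0.12 ± 0.11 (SE, adjusted p = 0.898).

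HSF1 trimers bind heat shock elements, repeats of the unit nGAAn in alternating orientation. Promoters with 3 such units in a row, matched exactly, are shown. A gene without an exact match is not shown to lack the element. A search for GAANNTTCNNGAA on both strands, overlapping matches included, was made in RefSeq promoter windows (GRCh38.p14) of 250 bases before to 50 after each gene's start. Of the 38 chaperone genes with a window, 7 held the motif, or 18.4%, against 0.608% of 27305 genes with windows of the same length. The shorter motif GAANNTTC, contained in the longer one, was in 16 of the 38, or 42.1%, against 8.21% of all genes. Among the 16 were HSPA1A, HSPA1B, DNAJB1 and HSPB1, which had no exact match to the longer motif in their windows. The 7 stretches follow 5′ to 3′ on the gene's strand, with the motif in capitals, and for HSPA8, HSP90AB1 and HSPD1 other or overlapping matches exist in the same window.
HSPA8, chr11:123062164-123062206, minus strand: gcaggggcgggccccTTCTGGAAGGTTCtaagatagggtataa
HSP90AA1, chr14:102087105-102087147, minus strand: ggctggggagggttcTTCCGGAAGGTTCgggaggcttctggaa
HSP90AB1, chr6:44247816-44247858, plus strand: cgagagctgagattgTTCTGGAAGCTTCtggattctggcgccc
DNAJA1, chr9:33025261-33025303, plus strand: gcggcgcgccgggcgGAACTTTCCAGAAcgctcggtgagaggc
DNAJB6, chr7:157336858-157336900, plus strand: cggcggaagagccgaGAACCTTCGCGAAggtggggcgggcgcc
CHORDC1, chr11:90223072-90223124, minus strand: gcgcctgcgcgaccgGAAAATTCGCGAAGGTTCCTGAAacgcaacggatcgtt
HSPD1, chr2:197500053-197500090, minus strand: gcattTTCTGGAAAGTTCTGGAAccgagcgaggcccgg

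The CHORDC1 stretch holds 3 overlapping matches that begin 60, 55 and 50 bases before the start, a run of units longer than in the other promoters. None of these 7 genes was called with anle138b, and their log2 fold changes lay between -0.11 for CHORDC1 and 0.05 for HSP90AB1. A match is a description of the letters and not evidence of binding in these tumors.

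Treatment differences were also compared between the naming sets, since an effect seen in one set is not shown to differ without a test of the difference. By that interaction test, edgeR called 0 of the 41 chaperone genes, and 0% of all genes, at an adjusted p under 0.05, and limma and DESeq2 called 0 of the chaperone genes, while over all genes limma called 0 and DESeq2 31. At an unadjusted p under 0.05 edgeR gave 4 of 41, or 9.76%, against 6.59% of all genes, and these were HSP90AA1, CHORDC1, HSPH1 and DNAJB4. For HSP90AA1 the log2 CPM difference of anle138b minus untreated was -0.58 in the 2-library set and 0.29 in the 4-library set (unadjusted p = 0.0126, adjusted p = 0.686). For CHORDC1, with 45.6 CPM in anle138b replicate 3 against 71.4 CPM in untreated replicate 3, the difference was -0.64 in the 2-library set and 0.17 in the 4-library set (unadjusted p = 0.0082, adjusted p = 0.66). HSPH1 had -0.41 in the 2-library set and 0.06 in the 4-library set, and DNAJB4 had -0.32 and 0.33 in the same order. Of the 41 genes 25 had opposite signs in the sets, or 61%, against 49% of all genes, and 16, or 39%, were positive in the 4-library set and negative in the 2-library set, against 23.5%. A stricter count asked that treatment separate all tumors of the 4-library set one way and the 2-library pair go the other. It held for 6 of 41, or 14.6%, against 16% of all genes. The 2-library set holds 1 tumor per treatment, so the spread in this test comes from the 4-library set alone. Mitochondrially encoded genes took 1.38% of counts in anle138b replicate 3 and 3.09% in untreated replicate 3, and the part of that difference in these values was not tested.

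**Figure D5:**
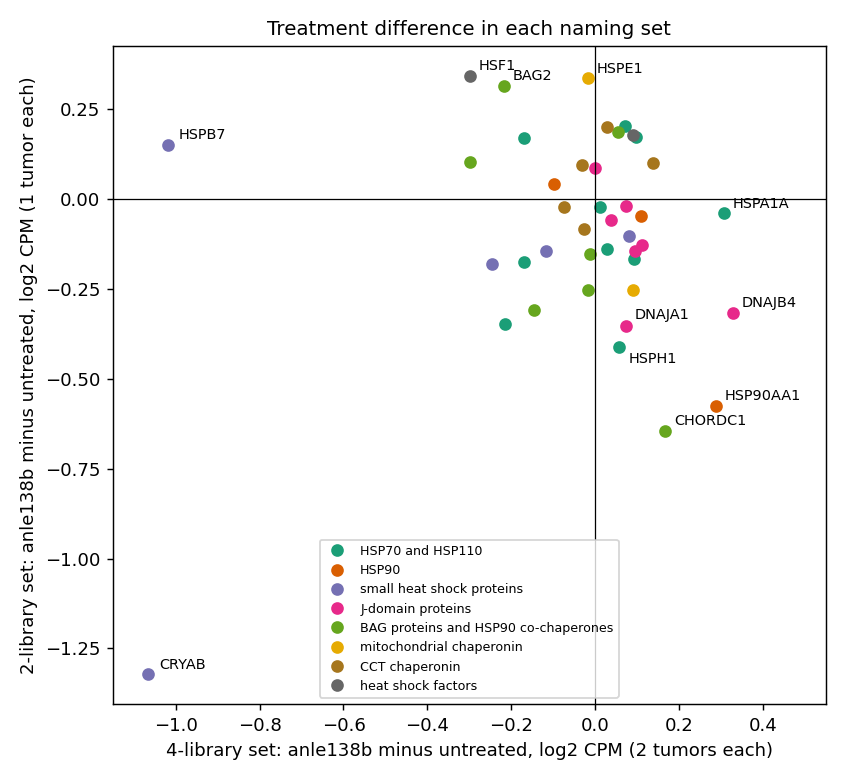
Log2 CPM difference of anle138b minus untreated in the 4-library set (x axis, 2 tumors per treatment) and in the 2-library set (y axis, 1 tumor per treatment), one point per tested chaperone gene, coloured by family. CRYAB lies far into the lower left at -1.07 and -1.32, while HSP90AA1, CHORDC1, HSPH1, DNAJA1 and DNAJB4 lie right of 0 and below 0.

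The sets also differed in level. On the CPM scale 18 of 41 chaperone genes, or 43.9%, were lower in both tumors of the 2-library set than in all 4 others, against 19.4% of all genes. Higher in both were 3, HSPA4, HSPA12A and HSPA13, or 7.32%, against 19% of all genes. On the TPM scale 6 were lower, or 14.6%, against 6.84% of all genes, and 10 were higher, or 24.4%, against 36.8%. More members were thus lower than higher on the CPM scale and more were higher than lower on the TPM scale, while on both scales the share of lower genes was above that of all genes and the share of higher genes below it. The genes lower on the TPM scale were HSPA1A, HSPA1B, TRAP1, HSPB1, BAG2 and HSPE1. HSPA1A, for example, had 43.7 TPM in anle138b replicate 3 and 45.8 TPM in untreated replicate 3, and between 64.4 and 97.5 TPM in the other 4 tumors.

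A wider list of 104 chaperone and stress genes gave 0 calls among 99 tested, with a median log2 fold change of 0.03. Of all genes tested 1.05% were called, so 0 calls in a list of this size is near that share. Its groups, which share FKBP4 and HSPA4L, counted 0 of 7 other HSP70, HSP110 and HSP90 genes, 0 of 34 other J-domain proteins, 0 of 21 further co-chaperones, 0 of 12 other CCT and prefoldin subunits, 0 of 14 mitochondrial quality control genes and 0 of 13 heat shock factors and HSF1 targets. IER5, an HSF1 target that promotes HSF1 activity, came nearest, with 27.7, 24.4 and 32.8 CPM in anle138b tumors against 20.6, 19.04 and 16.4 CPM in untreated tumors. All its anle138b tumors lay above all its untreated tumors, an order that 4.03% of all genes tested showed. Its log2 fold change was 0.60 ± 0.15 (SE, adjusted p = 0.119). In the wider list DNAJC3 had the same order and DNAJC2 the reverse. HSPA4L, an HSP110 relative, had a log2 fold change of -0.37 ± 0.10 (SE, adjusted p = 0.179). HSPA5 and HSP90B1, the HSP70 and HSP90 of the endoplasmic reticulum, had 0.13 ± 0.16 and -0.01 ± 0.11 (SE, adjusted p = 0.944 and 0.994). The naming sets had opposite orders for HSPA5, with log2 CPM differences of -0.44 in the 2-library set and 0.41 in the 4-library set.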

How the data were processed

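Per the labels' protocols, RNA came from TRIzol extraction and libraries from a TruSeq kit (RNA Library Prep Kit v2). The deposited files hold raw read counts per gene, with a file for each tumor. The authors used bcl2fastq 2.17.1.14, STAR 2.5.2a, featureCounts 1.5.0-p1 and build hg38, per the submitters' processing notes. The annotation release, strand and multiple-mapping settings and the handling of mouse reads are not given in the sources used here. Of 60617 identifiers, 58542 were in GENCODE 29, and 0 rows named no gene.

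Counts were tested with edgeR 4.0.16 in R 4.3.3, with filterByExpr (minimum count 10, minimum total 15), TMM and glmQLFit with naming set and treatment in the design (3 residual degrees of freedom, biological coefficient of variation 12.8%). P-values were adjusted by Benjamini-Hochberg over 20423 genes, and standard errors and 95% intervals came from the F statistic. The interaction fit had 2 residual degrees of freedom. TPM used GENCODE 29 exon lengths. DESeq2 1.42.0 and limma 3.58.1 were alternatives, as were other scalings, filters and left-out libraries. A sum of HSPA1A with HSPA1B, and of HSPD1 with HSPE1, was added after the data were seen. The fit was tested on simulated data. A total of 3 counts corresponds to 0.109 to 0.242 CPM, a limit that covers counting error only, since reads carry no molecular identifiers. No replicate pair agreed within sampling noise, since the chi-square per degree of freedom was 8.97 to 49.7. The labels do not tie tumors to animals, and p-values then reflect only how these 6 samples varied, which may be technical.

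The genes and lists were chosen with earlier results of these data known. Full values were given for called genes, the 4 highest and 4 lowest log2 fold changes, the most abundant gene per length in each family, the overlapping or near-identical pairs, HSF1 and HSF2. Genes outside that rule were named after their values were seen. RefSeq windows were matched by symbol for 38 of 43 genes, and HSPA14, HSPB2, CRYAB, STUB1 and HSF1 had none in the table used.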

Additional observations from a re-analysis of the deposited data

How the results depend on the processing

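Across all alternatives 0 chaperone genes were called raised, and 0 differed between naming sets under the 4 alternatives to that test. Likewise CRYAB was the lowered one in each except without the naming set term, where 0 were lowered and CRYAB stood at -1.16 (adjusted p = 0.316). Over the alternatives CRYAB's log2 fold change was -1.28 to -1.05. The count over all genes, 215, became 9 without the naming set term, 754 without a low-count filter, 412 with DESeq2 and 92 in the 4-library set alone, and leaving out 1 library gave 89 (without anle138b replicate 3) to 392 (without anle138b replicate 2). The lowered chaperone count stayed at 1 to 1 and the raised at 0 to 0 with a library left out. Several uncalled values crossed 0 with a library left out, among them HSPA1A (-0.02 without anle138b replicate 1), HSF1 (0.17 without anle138b replicate 2) and DNAJA1 (0.08 without untreated replicate 3). The cause was not tested. Where a left-out library left 1 tumor of a treatment in the 4-library set, that tumor was assumed to vary like the others. Without replicate 3 of either group, the remaining tumor of the 2-library set was fitted by the set term alone. Those fits largely repeat the 4-library set, with CRYAB at -1.09 (without anle138b replicate 3) and -1.07 (without untreated replicate 3) against -1.08. Scaling moved the median of all genes by under 0.1. No paired analysis was possible because the replicate numbers follow listing order and pair no tumors. Depth limits HSPB7, HSPB6 and HSPB2, and exon bases shared with other genes also limit HSPB6 and HSPB2.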

Other observations

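The 7 genes with the 3-unit heat shock motif, chosen by sequence and looked at as a group after their values were seen, all had a negative log2 CPM difference of anle138b minus untreated in the 2-library set and a positive one in the 4-library set. The differences ran from -0.64 (CHORDC1) to -0.05 (HSP90AB1) in the 2-library set and from 0.04 (DNAJB6) to 0.29 (HSP90AA1) in the 4-library set. Of all genes tested 23.5% had that pair of signs, and of the 41 chaperone genes 16, or 39%, a count that includes these 7. Among the tested chaperone genes with only the shorter motif, HSPA1A and DNAJB1 had the pair of signs. HSPA1B, HSPB1, HSPB8, BAG2, CCT2 and TCP1 did not. Under library size scaling and on the TPM scale all 7 genes with the 3-unit motif kept the pair of signs, and with DESeq2 size factors 6 did. The share of counts from mitochondrially encoded genes also differed in the 2-library set, at 1.38% in anle138b replicate 3 and 3.09% in untreated replicate 3, against 2.22% and 2.65% in anle138b tumors and 1.77% and 2.81% in untreated tumors of the 4-library set, and its part in the pattern was not tested. The 7 genes were read in the same 6 tumors and are not independent, and no test was made.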
